A study of Mus musculus with 50 samples.

Results

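In Ezh2 KO mouse embryonic stem cells, 30182 discrete blocks of dimethylated histone H3 lysine 27 (H3K27me2) stood out inside the broad H3K27me2 domains listed for that line. They were chosen from the peak caller's list of 194708 broad regions in the single H3K27me2 library of the Ezh2 KO line. That list draws each region as a wide, weak domain and marks inside it the stretches that also pass a stricter threshold, with a 1 bp mark at each end that holds no such stretch. A region entered when it held at least 3 marks, and its stretches longer than 1 bp are the blocks. They lay in 8585 regions (4.41% of those listed) and covered 21.2 Mb, which is 0.804% of the genome over 20 chromosomes. The same rule gave only 112 blocks in wild-type (WT) cells, 112 in Ezh1/2 dKO and 103 in Ezh2 Y726D, so that 30182 of the 30509 blocks in the 4 H3K27me2 lists belonged to Ezh2 KO.

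All lines derive from E14 mouse embryonic stem cells (E14TG2a). Ezh2 KO cells carry a CRISPR/Cas9 macrodeletion that leaves no EZH2 polypeptide, and Ezh1/2 dKO cells carry macrodeletions of both genes. Ezh2 Y726D and Ezh2 R685C are point mutations in the catalytic domain of EZH2, made in cells whose Ezh1 gene had been deleted (Y726D is described as homozygous). The rescue line is Ezh1/2 dKO with HA-tagged human EZH1 added back from a transfected vector. Whether each line is a single clone was not stated in the sources used here. Every chromatin list came from 1 library per line and target, so overlaps are given with 95% Wilson intervals that cover counting error only, no test between lines was possible for them, and the read depth behind the lists is unknown. RNA was measured in 8 libraries, with 2 for each of the lines WT, Ezh2 KO, Ezh1/2 dKO and Y726D.

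The Polycomb repressive complex PRC2 methylates H3K27 through EZH2 or its paralog EZH1, with SUZ12 and EED as core subunits. Trimethylated H3K27 (H3K27me3) marks silent developmental genes with CpG-rich promoters, where PRC2 is stably bound. In wild-type embryonic stem cells H3K27me2 is spread over much of the remaining genome, H3K27me1 lies over transcribed gene bodies, and H3K27 acetylation (H3K27ac) cannot share a tail with methylation. EZH1 is regarded as the weaker methyltransferase, and in Ezh2 KO cells it is the remaining H3K27 methyltransferase.

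Sequence from the middle of 5 blocks shows the range of DNA they covered (mm9, plus strand, windows of 300 bp, CG dinucleotides in capitals, none reaching an annotated exon). The blocks at Wnt5a, which encodes a secreted signalling protein, and at Gata2, a haematopoietic transcription factor gene, lay on WT SUZ12 peaks and had many CGs, with 13 in the window of the block nearest the Wnt5a start (chr14:29323480-29323779) and 16 in that of the widest block at Gata2 (chr6:88148266-88148565).
Wnt5a: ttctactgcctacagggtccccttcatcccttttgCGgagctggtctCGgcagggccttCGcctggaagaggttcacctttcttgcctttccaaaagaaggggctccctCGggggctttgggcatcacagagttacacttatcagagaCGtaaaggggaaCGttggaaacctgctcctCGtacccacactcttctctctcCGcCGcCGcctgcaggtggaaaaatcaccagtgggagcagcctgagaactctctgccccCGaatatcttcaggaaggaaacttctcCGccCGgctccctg
Gata2: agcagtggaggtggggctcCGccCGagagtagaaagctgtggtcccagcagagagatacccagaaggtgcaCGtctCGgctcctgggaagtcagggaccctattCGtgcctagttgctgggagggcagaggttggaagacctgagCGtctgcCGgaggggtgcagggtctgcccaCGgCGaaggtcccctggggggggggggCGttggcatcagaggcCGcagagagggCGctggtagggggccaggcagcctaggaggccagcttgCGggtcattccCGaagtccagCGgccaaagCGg
The widest block on a WT SUZ12 peak was at Fgfr3, a fibroblast growth factor receptor gene (chr5:34071812-34072111, 3 CGs). The widest block of all lay in intergenic DNA 14478 bp from the start of Nkx1-1, a homeobox gene (chr5:33799150-33799449, 2 CGs), on WT and Ezh2 KO H3K27me3 but on no WT SUZ12 peak. The block of 5358 bp by the start of Frmd4b (chr6:97349984-97350283, 1 CG) touched neither WT list but did touch an Ezh2 KO H3K27me3 peak. Its window began with a CT repeat. The windows of Wnt5a, Gata2, Fgfr3 and Frmd4b lay within genes, and those of Gata2 and Nkx1-1 were chosen after their values had been seen.
Fgfr3: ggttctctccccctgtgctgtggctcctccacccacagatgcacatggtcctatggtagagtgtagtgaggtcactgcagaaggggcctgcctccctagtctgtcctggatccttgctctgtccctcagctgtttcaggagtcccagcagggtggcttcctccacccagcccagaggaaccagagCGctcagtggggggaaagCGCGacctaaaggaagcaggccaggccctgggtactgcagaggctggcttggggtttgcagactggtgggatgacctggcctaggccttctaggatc
Nkx1-1: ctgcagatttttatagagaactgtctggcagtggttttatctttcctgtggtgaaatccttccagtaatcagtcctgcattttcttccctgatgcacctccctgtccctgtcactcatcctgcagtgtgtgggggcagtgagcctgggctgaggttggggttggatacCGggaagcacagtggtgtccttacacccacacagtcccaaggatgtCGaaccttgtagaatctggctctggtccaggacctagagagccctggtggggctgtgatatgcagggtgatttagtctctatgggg
Frmd4b: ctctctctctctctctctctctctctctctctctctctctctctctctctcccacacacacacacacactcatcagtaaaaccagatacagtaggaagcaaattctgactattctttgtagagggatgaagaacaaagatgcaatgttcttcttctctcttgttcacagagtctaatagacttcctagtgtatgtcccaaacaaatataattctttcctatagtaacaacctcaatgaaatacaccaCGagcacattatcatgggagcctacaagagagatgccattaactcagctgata

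Most blocks were short, and a small number were very wide. Widths ran from 200 to 16395 bp with a median of 387 bp, the middle 50% lay between 257 and 775 bp, and 2103 blocks were 2 kb or wider while 10709 were under 300 bp. A region held a median of 2 blocks and at most 116, with 3288 regions holding 1 and 591 holding 10 or more. The regions that held blocks had a median −log10 p of 3.59 (at most 18.4), and 54 of them reached 10. On either side of the rule, the 3288 regions with exactly 3 marks had a median width of 6002 bp and a median −log10 p of 2.80, whereas the 186123 left out, each with 2 marks, had medians of 976 bp and 1.49. Block density per Mb ran from 2.90 on the X chromosome and 6.10 on chromosome 16 to 17.5 on chromosome 7 and 17.8 on chromosome 5, and the Y chromosome held none.

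The region richest in blocks lay in the imprinted cluster on chromosome 7 that holds Kcnq1, Cdkn1c, Slc22a18 and Phlda2, a potassium channel gene, a cell cycle inhibitor gene and neighbours known for parent-of-origin expression. It was 206767 bp long and held 116 blocks that together covered 119831 bp. The next were a region of 80 blocks around Hmx1, a homeobox gene, one of 79 around Efnb1, an ephrin ligand gene on the X chromosome, and one of 67 at Trio. The HoxA cluster, whose genes set position along the body axis, held 56 blocks in a single region of 113548 bp, and a region over the HoxB genes Hoxb1 to Hoxb6 held 52. Each of these 6 regions held a WT SUZ12 peak and both WT and Ezh2 KO H3K27me3 peaks.

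Of the 30182 blocks, 5185 (17.2%, interval 16.8 to 17.6) touched a WT SUZ12 peak, although those 5404 peaks cover 0.236% of the genome. The share was 39.5% for WT H3K27me3 (11927 blocks, interval 39.0 to 40.1, 0.548% of the genome) and 32.0% for the H3K27me3 left in Ezh2 KO (9647 blocks, interval 31.4 to 32.5, 0.531%). Seen from the other side, 78.6% of WT SUZ12 peaks (4247 of 5404), 74.2% of WT H3K27me3 peaks (12429 of 16754) and 76.3% of Ezh2 KO H3K27me3 peaks (6837 of 8956) held at least 1 block. Broad regions with blocks held a WT SUZ12 peak in 36.6% of cases, against 0.188% of the regions without blocks. The latter regions were also shorter, and the part of length in this contrast was not tested. All of these lists are peaks at p of 1e-10 or lower, and any shared base counted as an overlap. With at least 50% of the block covered, the WT SUZ12 share fell to 9.88%. With peaks of p at most 1e-20, the WT H3K27me3 share fell to 10.7%.

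**Figure D1:**
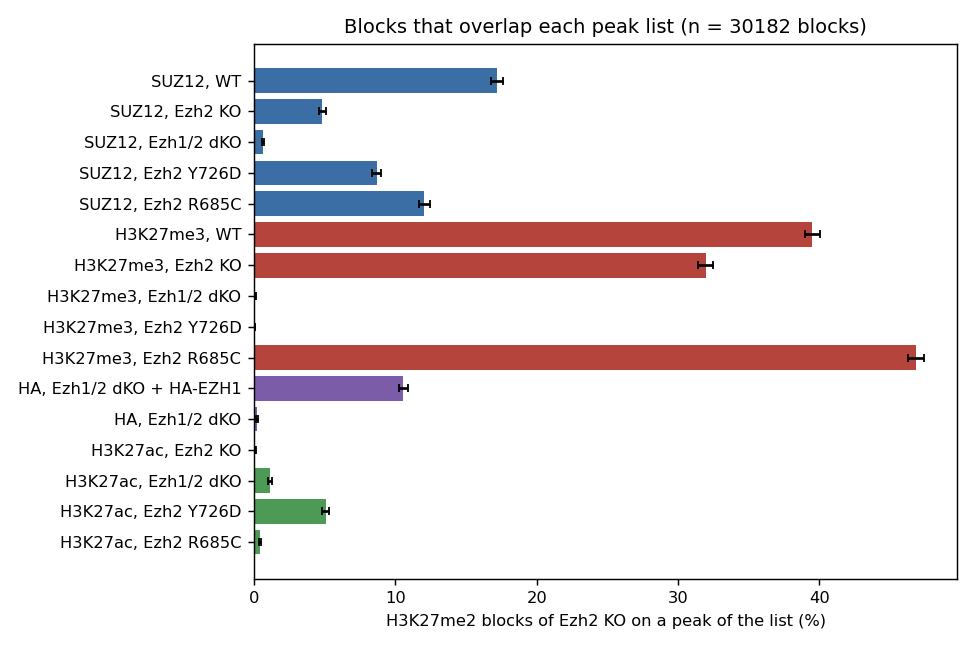
Share of the 30182 H3K27me2 blocks of Ezh2 KO (horizontal axis, percent) that overlap a peak of each list (vertical axis), where whiskers are 95% Wilson intervals of counting error with 1 library per list. H3K27me3 of R685C (46.8%), WT (39.5%) and Ezh2 KO (32.0%) reach the most blocks, and H3K27me3 of Ezh1/2 dKO and Y726D almost none.

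Sorted by these lists, the blocks fell into 4 sets that differed in width and place. The 5185 blocks on WT SUZ12 were the widest, with a median of 1262 bp, and made up 37.8% of all block bases. The 7213 blocks on WT H3K27me3 without SUZ12 (23.9%) had a median of 569 bp. The 1998 that touched only Ezh2 KO H3K27me3 (6.62%) had a median of 466 bp. The remaining 15786 (52.3%) touched none of the 3 lists, had a median of 295 bp and held 27.7% of block bases. Any shared base counted, and a wider block has more bases that can meet a peak. The sorting itself thus favours wide blocks on the lists, and its part in these widths was not tested. A protein-coding transcription start site (TSS) lay within 5 kb of 83.0%, 55.6%, 42.7% and 29.2% of the 4 sets in that order. These 4 sets also differed in CpG content, with a median of 3.52 CG per 100 bp on SUZ12 against 1.30, 1.27 and 1.13 in the others, beside 3.20 in the 1 kb around TSSs and 0.777 in listed regions without blocks. Criteria for CpG islands were met by 26.2% of the SUZ12 blocks and 1.05% of those on none of the lists.

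Many blocks outside SUZ12 peaks lay in the same domain as one. Regions with a WT SUZ12 peak (3138 of 8585) held 53.2% of all blocks, and 41.5% of blocks lay within 5 kb of a WT SUZ12 peak. A further 3559 regions had neither a WT SUZ12 nor a WT H3K27me3 peak, held 22.8% of the blocks with a median of 1 block each, and had a median −log10 p of 2.79, against 5.26 in the regions with SUZ12. The widest blocks off both WT lists were near Gm6133 (5768 bp, 14423 bp from a TSS), at Frmd4b (5358 bp), Fgfr2, another fibroblast growth factor receptor gene (5197 bp, 3735 bp from a TSS), Cdk5rap2 (3991 bp, 346284 bp away) and Uaca (3959 bp, 7209 bp away). Each of these blocks touched an Ezh2 KO H3K27me3 peak, and the one at Fgfr2 lay 6670 bp from a WT SUZ12 peak. Blocks on none of the 3 lists lay a median of 47537 bp from the nearest WT SUZ12 peak, and 48.4% of them were intergenic.

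H3K27me3 peaks that Ezh2 KO cells kept held blocks more often than those they lost. Of 8408 WT H3K27me3 peaks that still touched an H3K27me3 peak in Ezh2 KO, 94.2% held a block (interval 93.7 to 94.7), and of the 8346 that did not, 54.0% did (53.0 to 55.1). The values were alike off SUZ12 peaks (96.2% of 3825 against 54.1% of 7749) and on them (92.5% of 4583 against 53.9% of 597). The peaks without H3K27me3 in Ezh2 KO were also weaker in WT, with a median −log10 p of 12.1 against 16.1. In bases, 51.5% of the WT H3K27me3 territory held both a block and Ezh2 KO H3K27me3, 20.5% held a block alone, 8.44% held H3K27me3 alone and 19.6% held neither. Read over the blocks themselves, 35.1% of their bases carried H3K27me3 in both lines, 13.9% in WT alone, 12.4% in Ezh2 KO alone and 38.6% in neither.

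WT SUZ12 peaks showed the same order. Those with H3K27me3 in both lines held a block in 94.7% of cases (3574 of 3773), those with H3K27me3 in WT alone in 51.2% (263 of 514), those with it in Ezh2 KO alone in 59.5% (332 of 558), and those with it in neither in 13.95% (78 of 559). Stronger peaks held a block more often. From the weakest to the strongest quintile by −log10 p the share went from 61.8% to 91.8% for WT SUZ12, from 55.2% to 94.0% for WT H3K27me3 and from 54.1% to 98.5% for Ezh2 KO H3K27me3. Stronger peaks were also wider, with median widths of 379 and 2082 bp in the outer SUZ12 quintiles, and a wider peak has more bases that can meet a block. Counted in bases, which width does not inflate, the share inside blocks went from 52.1% to 72.8% over the first 4 quintiles of WT SUZ12 and then stood at 62.9% in the strongest. For Ezh2 KO H3K27me3 it reached 78.3% in the fourth and stood at 73.9% in the strongest quintile, whereas for WT H3K27me3 it increased over all of them, from 48.5% to 82.2%.

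**Figure D2:**
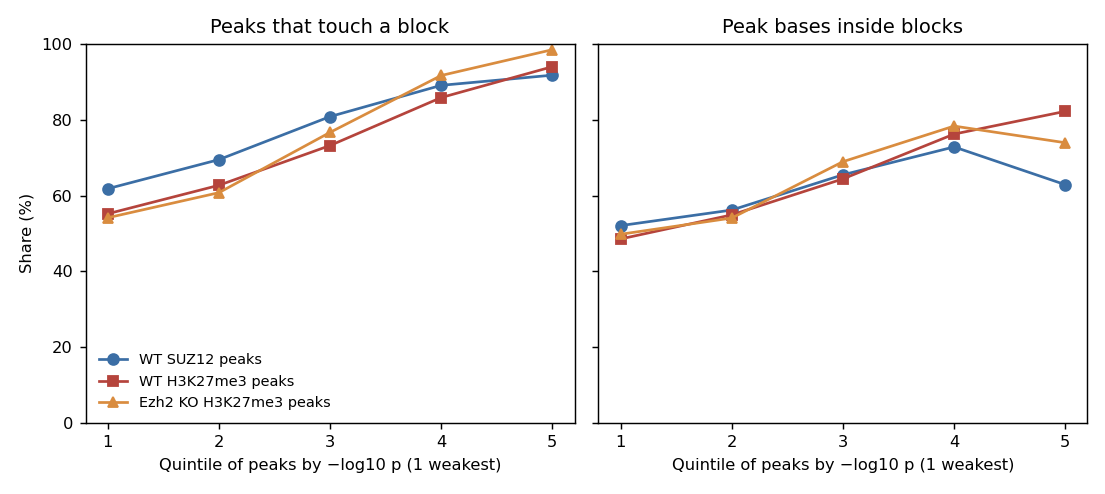
Share of peaks that touch a block (left, percent) and of peak bases inside blocks (right, percent) by quintile of peak −log10 p, with 1 the weakest, for WT SUZ12, WT H3K27me3 and Ezh2 KO H3K27me3. The share of touched peaks rises in all 3 lists, while the share of bases in the strongest quintile drops to 62.9% for SUZ12 and 73.9% for Ezh2 KO H3K27me3.

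Around the strongest SUZ12 peaks the 2 marks of Ezh2 KO had different profiles. In the strongest quintile, Ezh2 KO H3K27me3 peaks covered 97.7% of the bases within 0.5 kb of the SUZ12 peak centre while blocks covered 64.8%. At 1.5 to 2 kb the values were 71.8% and 60.4%, and at 2.5 to 3 kb they were 46.4% and 47.4%. WT H3K27me3 stood between them at the centre, with 86.6%. Around the weakest quintile the centre held 49.4% of Ezh2 KO H3K27me3 and 46.0% of blocks, and over all SUZ12 peaks 74.2% and 58.8%. H3K27me2 block cover was thus lower than H3K27me3 cover over the core of strong SUZ12 sites and close to it beyond 2.5 kb.

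**Figure D3:**
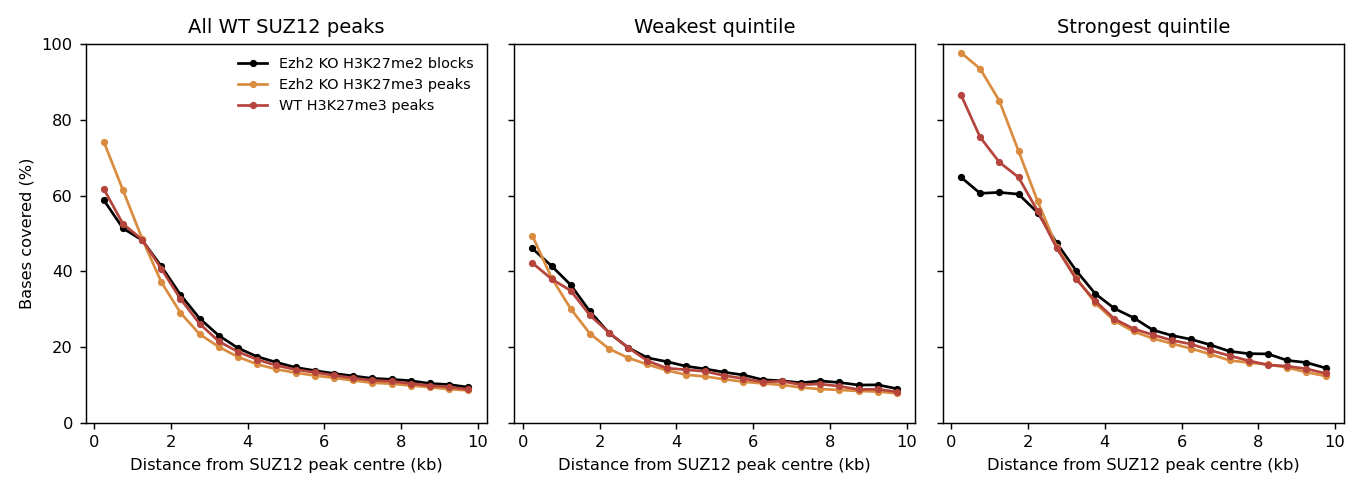
Bases covered (percent) by Ezh2 KO H3K27me2 blocks and by H3K27me3 peaks against distance from the centre of WT SUZ12 peaks (kb), for the weakest and strongest quintiles of SUZ12 peaks. At the centre of the strongest peaks, blocks cover 64.8% and Ezh2 KO H3K27me3 97.7%, and the curves meet at 2.5 to 3 kb.

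PRC2 in the mutant lines reached part of the same positions. SUZ12 peaks of Ezh2 KO itself, of which 1578 were listed, touched 4.82% of blocks, and 79.7% of those peaks held a block. HA-EZH1 in the rescue line, with 4429 listed peaks, touched 10.6% of blocks (3189). The HA antibody in Ezh1/2 dKO, which carries no tag, had 1291 peaks and touched 0.195%. The HA-EZH1 list gives no p and could not be held to the p limit of the other lists. These shares may thus rest on unlike thresholds, and the part of that in the contrast was not tested. On the blocks with WT SUZ12, HA-EZH1 reached 60.0% and Ezh2 KO SUZ12 28.0%, and on blocks with none of the lists HA-EZH1 reached 0.0760%. SUZ12 of the catalytic mutants also met blocks, in 8.68% of them for Y726D and 12.1% for R685C, against 0.610% in Ezh1/2 dKO. H3K27me3 separated the mutants, since it touched 46.8% of blocks in R685C, but 16 blocks in Y726D (0.0530%) and 20 in Ezh1/2 dKO (0.0663%). The Y726D list held 3862 H3K27me3 peaks, 13 of which met a block.

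Few blocks met acetylation in Ezh2 KO. The blocks were chosen for methylation of the same residue in that line, so a low share there is partly fixed by the choice. In all 27 blocks (0.0895%) touched one of 25483 Ezh2 KO H3K27ac peaks, which cover 0.778% of the genome. The same positions met H3K27ac more often in the other lines, with 334 blocks (1.11%) on Ezh1/2 dKO H3K27ac and 1530 (5.07%) on that of Y726D, and in R685C 123 did (0.408%). The SUZ12 blocks met it most often, of which 21.1% touched Y726D H3K27ac and 4.94% that of Ezh1/2 dKO, against 0.386% in Ezh2 KO and 1.45% in R685C. The list of Y726D held 40829 H3K27ac peaks and that of R685C 41185, whereas Ezh1/2 dKO had 17618. Acetylation in WT was not analysed here.

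In WT cells the blocks were poor in broad H3K27me2. Over the 19 chromosomes of that list, WT H3K27me2 regions covered 14.2% of the genome, 5.49% of all block bases, 0.795% of block bases on SUZ12 and 13.1% of those on none of the lists. The lists of Ezh1/2 dKO and Y726D covered 24.8% and 24.3% of the genome and 28.9% and 37.2% of block bases. For blocks on none of the lists these shares were 42.2% and 49.1% of bases, and for SUZ12 blocks 18.05% and 28.8%. Neither line has an active H3K27 methyltransferase by its genotype, and the part of such signal in the Ezh2 KO blocks was not tested. Strict blocks in those lines seldom met these positions, with 3 blocks of Ezh2 KO on one of WT, 8 on one of Ezh1/2 dKO and 11 on one of Y726D.

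Broad H3K27me1 regions, listed over 9 chromosomes, differed between the lines at the blocks. They covered 0.418% of block bases in WT, where they took 14.5% of the chromosomes, and 60.6% in Ezh2 KO, where they took 18.8%. The share in Ezh2 KO was larger away from SUZ12, at 87.8% of bases of blocks on none of the lists against 32.3% on SUZ12. The H3K27me1 lists of Ezh1/2 dKO and Y726D, which serve as background, covered 27.6% and 42.3% of block bases and 10.99% and 12.6% of the chromosomes. On SUZ12 blocks Ezh2 KO (32.3%) lay between Ezh1/2 dKO (18.9%) and Y726D (42.5%), whereas on blocks with none of the lists it exceeded both (38.9% and 45.1%). Broad regions of ATAC-seq, an assay of open chromatin, covered between 46.7% and 52.0% of block bases in the 4 lines against 22.9% to 24.4% of the genome. Each of these lists held between 752009 and 798238 regions, and whether such regions are open chromatin was not tested. ATAC-seq stretches picked by the rule used for blocks covered 0.0124% to 0.0724% of the genome. They touched few blocks, with 1.03% for Ezh2 KO, 0.5401% for Y726D, 0.437% for WT and 0.225% for Ezh1/2 dKO.

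**Figure D4:**
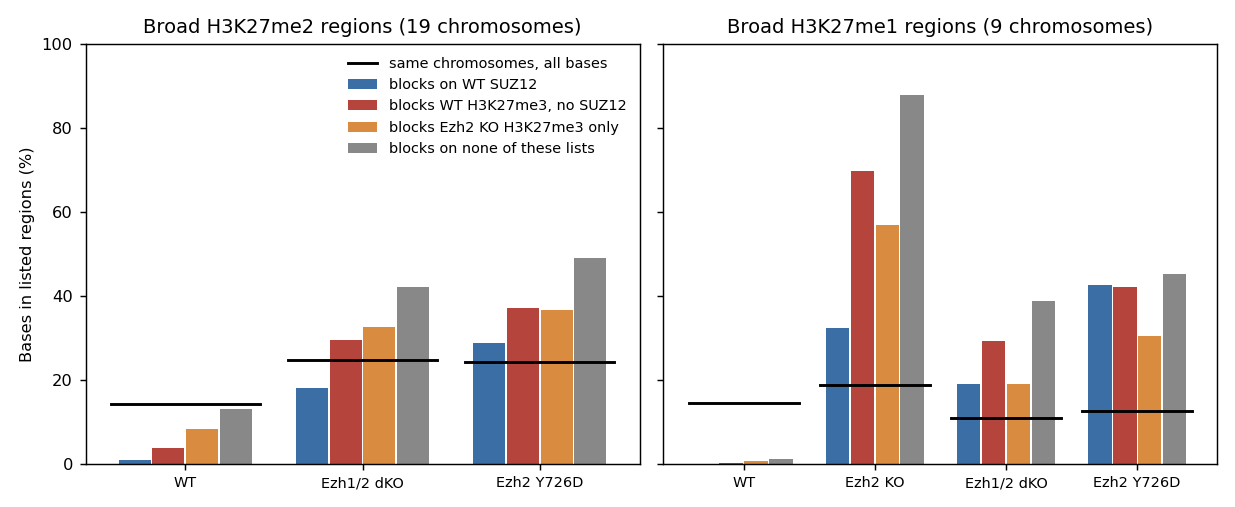
Bases of blocks inside broad listed regions (percent) in each line shown, for H3K27me2 over 19 chromosomes and H3K27me1 over 9. Bars are blocks on WT SUZ12, on WT H3K27me3 without SUZ12, on Ezh2 KO H3K27me3 only and on none of these lists. The black line is the share of all bases of those chromosomes. On blocks on none of the lists, WT H3K27me1 covers 1.07% of bases, against 14.5% of the chromosomes, and Ezh2 KO H3K27me1 87.8%.

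Of 22367 protein-coding genes, 4588 had a block within 5 kb of a TSS (20.5%). Most of these were Polycomb targets in WT, with 2783 that had both WT SUZ12 and WT H3K27me3 near the TSS, and 90.8% of these also kept an H3K27me3 peak in Ezh2 KO. Only 331 genes with WT SUZ12 lacked a block. Those 331 differed from the 2898 genes with both in acetylation, since 57.4% of them had an Ezh2 KO H3K27ac peak within 5 kb of a TSS, against 12.1%. They also kept less H3K27me3, with a peak in Ezh2 KO at 10.3% against 89.9%. The genes are split here by H3K27me2 in that line, so the contrast in acetylation is partly fixed by the split. In Y726D, H3K27ac lay near 43.1% of the genes with SUZ12 and a block. A block without WT SUZ12 was found at 1690 genes, 55.3% of which had WT H3K27me3.

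In each listed family of developmental regulators more genes had a block than lacked one. All 9 Pax genes and all 12 LIM homeobox genes had one, as did 37 of 39 Hox genes (Hoxc12 and Hoxc13 were the exceptions, though both had WT SUZ12), 13 of 14 Nkx genes, 18 of 19 Wnt ligand genes, 15 of 18 Sox, 23 of 27 developmental bHLH, 5 of 6 Gata, 16 of 22 Fgf ligand, 11 of 16 T-box and 25 of 43 Fox genes. Within families the members without a block included Sox2, Tbx3, Fgf4 and Foxo1, and also Myf5, Gata1, Wnt8b and Tbx22. Expression of members with and without a block was not compared. Over all protein-coding genes the share with a block was 20.5%. Pluripotency genes stood at 2 of 18, namely Dppa3, a germline and pluripotency-associated gene, and Esrrb, an orphan nuclear receptor gene, and housekeeping genes at 1 of 15, namely B2m, which encodes the light chain of class I MHC.

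Some genes of the Polycomb machinery held blocks, beside 20.5% of all protein-coding genes. Of 18 listed PRC1 genes 7 did, namely Cbx2 and Cbx8, whose products read H3K27me3, Bmi1 and Pcgf5, which encode PCGF subunits, Phc2, Kdm2b, whose product binds unmethylated CpG DNA, and Yaf2. Of 12 PRC2 genes 2 did (16.7%, below the share of all genes), namely Ezh1 and Phf19, an accessory subunit gene. Suz12, Eed and Ezh2 were among those without a block. Among genes of other lineages, the markers of primitive endoderm (6 of 6), mesoderm (4 of 4) and trophoblast (4 of 5) mostly had a block, while of 7 embryonic stem cell markers 1 did, 2 of 3 neural and 1 of 5 fibroblast markers did.

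Among the genes with the most block bases near a TSS were Hoxd3 (25780 bp), Hoxa3 (21892 bp), Speg, a muscle kinase gene (17456 bp), Pax6, a regulator of eye and brain development (17383 bp), Grm4, a glutamate receptor gene (17106 bp), Nrxn2, a neurexin gene (16712 bp), and Lhx6, a gene of interneuron development (16325 bp). Pcdha11, a protocadherin gene, had 23531 bp. Because windows around several TSSs add up, genes with many TSSs, such as Pax6 with 29, have more room for block bases.

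At 15 Polycomb loci that the study displayed, chosen by its authors on these same samples, each gene body with 10 kb to each side held blocks. The summed block length ran from 2263 bp at Mmp25 to 18267 bp at Fgfr3 with a median of 10016 bp, and the number of blocks from 3 to 14. WT SUZ12 took a median of 9326 bp, WT H3K27me3 13977 bp and Ezh2 KO H3K27me3 14876 bp. At Hoxa10 the blocks covered 10016 bp where Ezh2 KO H3K27me3 covered 29424 bp of a window of 29658 bp, whereas at Fgfr3 blocks covered 18267 bp and Ezh2 KO H3K27me3 14264 bp. Olig3, a neural bHLH gene, had 5290 bp of blocks against 2159 bp of Ezh2 KO H3K27me3 and no SUZ12 peak in Ezh2 KO. Peaks of H3K27ac lay in none of the 15 windows in Ezh2 KO, in 6 in Ezh1/2 dKO and in 10 in Y726D.

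RNA was compared for the genes with a block within 5 kb of a TSS, and the targeted genes were checked beforehand. Ezh2 had 598 and 546 normalized counts in the WT libraries, 1.05 and 0.968 in Ezh2 KO, 0.824 and 1.78 in Ezh1/2 dKO and 422 and 613 in Y726D. Ezh1, which itself has a block, had 227 and 377 in WT, 372 and 378 in Ezh2 KO, 14.01 and 20.4 in Ezh1/2 dKO and 24.1 and 15.7 in Y726D. Every library matched its label. The stem cell markers were expressed throughout, with Pou5f1 between 1328 and 1916 and Nanog between 806 and 1010. Recovered read totals ran from 3.60412e+06 to 5.18155e+06, and Ezh1/2 dKO libraries had the most genes with a read (17042 and 17104, against 15660 to 16399 in the others). In bulk RNA, fewer cells that express a gene and less RNA per cell cannot be told apart. The study describes its samples in general as biological replicates, and whether the RNA libraries came from separate cultures was not stated in the sources used here, so p-values measure the spread between these samples.

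Block genes were little expressed in WT, with a median of 21.5 normalized counts among those tested, against 174 over all matched genes tested. Of 3898 block genes in the RNA table, 2432 passed the filter of a mean of 5 normalized counts over the 8 libraries. Many low genes passed it through a line where they were high, so counts with no filter stand beside the filtered ones. Calls needed a log2 fold change of 1 or more in either direction together with an adjusted p below 0.1 (limma with Benjamini-Hochberg adjustment over all 13872 genes tested). The 3 comparisons with WT share its 2 libraries.

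In Ezh2 KO, 3 block genes were higher and 16 lower than in WT, where 0.0937% and 0.31% of all tested genes were called. That is 0.123% and 0.658% of the block genes, whose median log2 fold change was −0.11 against −0.01 over all genes. With no filter 2 were higher and 5 lower (0.0513% and 0.128% of block genes, beside 0.0388% and 0.155% of all). Quantile normalization gave 3 higher and 5 lower, edgeR 1 and 4, and DESeq2 9 and 45. Without WT replicate 1, or without Ezh2 KO replicate 2, 0 genes were higher (128 and 67 at an unadjusted p under 0.05) and 1 was lower, and without WT replicate 2 there were 12 and 37. Brdt, a testis-specific bromodomain gene, had 0 and 0.963 normalized counts in WT and 17.8 and 15.5 in Ezh2 KO (log2 fold change 3.65, SE 0.56, adjusted p = 0.0403). Meis2, a homeobox gene and HOX cofactor, stood at 204 and 210 before and 551 and 518 after loss of EZH2 (1.36, SE 0.19, adjusted p = 0.0262). Tfap2a, a neural crest transcription factor gene, had 24.0 and 54.9 against 170 and 179 (2.23, SE 0.38, adjusted p = 0.0758). The rises were not particular to Ezh2 KO. In Y726D, Brdt had 8.92 and 15.7, Meis2 489 and 336 and Tfap2a 136 and 91.7, each above both WT libraries. In these 3 genes the libraries of WT and Ezh2 KO did not overlap, which the rule that named them required.

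The largest falls in Ezh2 KO were in genes of low count in WT. Cobll1 had 14.7 and 12.5 normalized counts in WT and 0 in both Ezh2 KO libraries (adjusted p = 0.0346). Dcc, a netrin receptor gene, had 41.4 and 7.70 in WT, 0 in both Ezh2 KO libraries, and 71.7 and 87.0 in Ezh1/2 dKO (adjusted p = 0.0663 for the fall). Inpp4b, a phosphoinositide phosphatase gene, followed the same order, with 42.7 and 8.67, then 0 in both, then 51.1 and 63.0. Arg2, a mitochondrial arginase gene, had 44.0 and 25.03 in WT, 4.18 and 0 in Ezh2 KO and 173 and 234 in Ezh1/2 dKO, and Dux, a repeated transcription factor gene whose copies share reads, so that its value is uncertain, 36.0 and 23.1, then 0 and 2.90, then 48.6 and 63.0. In Y726D, Cobll1 had 12.5 and 6.71, Dcc 14.3 and 10.07, Inpp4b 4.46 and 3.36, Arg2 30.3 and 20.1 and Dux 5.35 and 3.36. Inpp4b and Dux thus lay below both WT libraries in Y726D as well, a line with few blocks, and for Dcc and Inpp4b the 2 WT libraries differed widely. Cobll1, Dcc and Inpp4b were at 0 in both Ezh2 KO libraries, so their fitted folds are no measure of size.

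In Ezh1/2 dKO, 287 block genes rose and 6 fell, where 3.63% and 0.389% of all tested genes were called. The rises were 11.8% of the tested block genes, and with no filter 278 of 3898 rose (7.13%, beside 2.69% of all) and 4 fell (0.103%, beside 0.244%). Their median log2 fold change was 0.73, against 0.01 over all genes, and 0.74 against 0.07 with no filter. Quantile normalization, which forces the libraries to 1 distribution, gave 164 rises and a median of 0.29. Without Ezh1/2 dKO replicate 1 or replicate 2 the count of rises was 0, with 457 and 476 block genes higher at an unadjusted p under 0.05 and medians of 0.71 and 0.72. On the 2432 genes with all libraries, edgeR called 295 and DESeq2 296 rises.

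In Y726D, 150 block genes rose (6.17%) and 25 fell (1.03%), where 1.66% and 1.06% of all tested genes were called. With no filter 113 rose (2.90%, beside 0.925% of all) and 17 fell (0.436%, beside 0.587%). The median log2 fold change of the block genes was 0.42, against −0.01 over all. A fit on the 4 libraries of WT and Y726D alone called 19 rises and 1 fall. Without Ezh1/2 dKO replicate 1 or replicate 2, 62 and 64 rose and 7 fell, without Y726D replicate 2 81 rose and 9 fell, without Y726D replicate 1 53 fell, and without WT replicate 1 12 fell.

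The direct comparison of Ezh1/2 dKO with Ezh2 KO, added after the data had been seen, asks what the block genes do when the remaining EZH1 is also removed. In it, 332 block genes were higher in Ezh1/2 dKO (13.7%) and 1, Ezh1 itself, was lower, where 3.52% and 0.0577% of all tested genes were called. With no filter 387 were higher (9.93%, beside 3.24% of all) and 1 lower (0.0257%, beside 0.0498%). Their median was 0.84, against −0.01 over all. Quantile normalization gave 107 and a median of 0.37. Leaving out 1 library at a time, the count was 28 without Ezh1/2 dKO replicate 1, 30 without replicate 2, 108 without Ezh2 KO replicate 1 and 169 without its replicate 2.

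The sets of block genes differed in these counts, given as a description with no test between them. With WT SUZ12 near the TSS, 214 of 1610 tested block genes rose in Ezh1/2 dKO (13.3%) and 118 in Y726D (7.33%). Without WT SUZ12, 73 of 822 (8.88%) and 32 (3.89%) did. Of 286 genes with WT SUZ12 but no block, 23 (8.04%) and 13 (4.55%) rose, and of 10420 genes with neither, 179 (1.72%) and 62 (0.595%) did. The sets differed in expression, with median WT normalized counts of 19.2, 28.1, 104 and 250 in the order given. All are filtered genes, and low genes could pass through a line where they were high. The part of expression level and of the filter in these shares was not tested. Block genes where Ezh1/2 dKO had an H3K27ac peak and Ezh2 KO had none rose in that line in 62 of 239 cases (25.9%). Of 522 block genes with an Ezh2 KO H3K27ac peak, 5.56% rose in Ezh1/2 dKO. Without one, 15.7% of 883 with a Y726D H3K27ac peak and 11.6% of 1027 with none in Y726D rose there. The share of all tested block genes was 11.8%. These H3K27ac sets had median WT normalized counts of 30.0, 78.8, 24.0 and 12.1 in the order given. Whether the rises go with gained acetylation was not tested. Of 253 tested genes with a block and no peak of the 3 lists at the TSS, 24 (9.49%) rose in Ezh1/2 dKO and 7 (2.77%) in Y726D.

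Hox genes were among the largest rises. Hoxa10, a posterior HOX gene, had 2.67 and 0 normalized counts in WT, 5.23 and 0 in Ezh2 KO, 226 and 223 in Ezh1/2 dKO and 424 and 493 in Y726D (log2 fold change 6.88 in Ezh1/2 dKO, adjusted p = 0.00845, and 7.90 in Y726D, adjusted p = 0.00574). Hoxa9 had 0 and 2.89, then 1.05 and 0, then 61.0 and 50.6, then 145 and 210, in the same order of lines. Hoxa7 had 5.34 and 6.74, then 10.46 and 5.81, then 65.1 and 85.2, then 106 and 232. In these 3 genes WT and Ezh2 KO overlapped and both other lines lay above them. They were named among the largest rises, a rule that required libraries above both WT libraries, so this order is partly fixed by the choice.

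Hoxd13, which patterns digits, was at 0 in every WT and Ezh2 KO library, and rose to 33.8 and 23.1 in Ezh1/2 dKO and 27.6 and 31.3 in Y726D. Against a floor of 3 reads per WT library this is at least 8.26-fold and at least 8.56-fold higher. Hoxa11 was also at 0 in WT and was at least 6.41-fold higher in Ezh1/2 dKO and at least 16.9-fold higher in Y726D, and Hoxb7, likewise at 0, at least 5.98-fold and at least 3.95-fold higher. Of 34 Hox genes with a block in the RNA table, 18 were tested, 11 rose in Ezh1/2 dKO, 10 in Y726D and 0 in Ezh2 KO, where limma, edgeR and DESeq2 all called 0 and 2 had an unadjusted p under 0.05 by limma. In Ezh1/2 dKO edgeR called 10 and DESeq2 11 of them, and in Y726D 5 and 8. Hoxd13, Hoxa11 and Hoxb7 passed the filter through the lines where they were high. The choice of tested Hox genes thus favours rises in those lines, and its part in these counts was not tested. Of all tested genes limma called 3.63% higher in Ezh1/2 dKO and 1.66% in Y726D. The other Hox genes called in both lines were Hoxa3, Hoxc10, Hoxd8 and Hoxd10, and Hoxc4 was called in Ezh1/2 dKO alone, a difference between the lines that was not tested. Counting took no account of strand, so antisense transcripts of the Hox clusters cannot be told apart from the genes.

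Of the 15 displayed loci 11 were tested, and Hoxa10, Hoxa11, Hoxa7, Hoxb7, Olig3 and Wnt5a rose in Ezh1/2 dKO and in Y726D. Some, such as Olig3, passed the filter through these lines, which favours rises in them. Among all tested genes 3.63% and 1.66% rose in these lines. Wnt5a had 6.67 and 1.93 normalized counts in WT, 2.09 and 3.87 in Ezh2 KO, 50.3 and 31.1 in Ezh1/2 dKO and 69.5 and 69.4 in Y726D (log2 fold change 3.10, adjusted p = 0.0329, and 3.89, adjusted p = 0.0190). Olig3 was at 0 in WT and at least 4.45-fold higher in Ezh1/2 dKO and at least 5.90-fold higher in Y726D. Fgfr3, with the widest SUZ12 block, had 40.0 and 56.8 in WT, 55.4 and 51.3 in Ezh2 KO, 47.8 and 56.8 in Ezh1/2 dKO and 62.4 and 42.5 in Y726D, so all 4 lines overlapped.

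**Figure D5:**
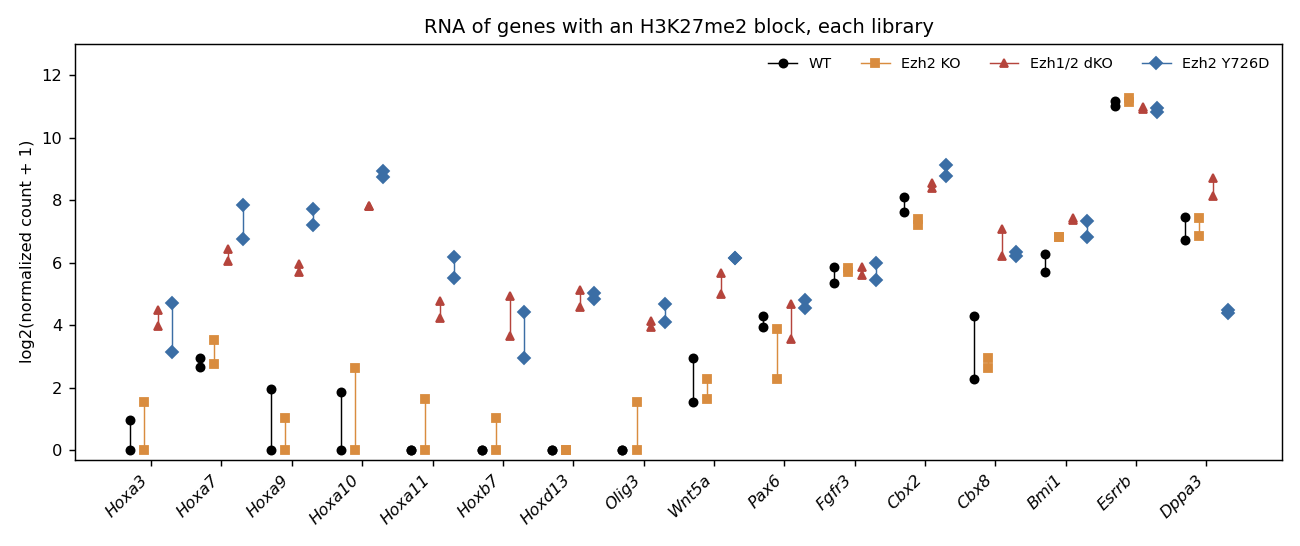
RNA of named genes with a block, as log2(normalized count + 1) in each of the 2 libraries of each of 4 lines (WT, Ezh2 KO, Ezh1/2 dKO, Y726D), joined by a line within each line of cells. Hoxa10 and Hoxd13 lie near 0 in WT and Ezh2 KO and far above in Ezh1/2 dKO and Y726D.

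Among the genes with the most block bases, Hoxa3 had 0 and 0.963 normalized counts in WT, 0 and 1.94 in Ezh2 KO, 14.8 and 21.3 in Ezh1/2 dKO and 24.96 and 7.83 in Y726D, and was called in the last 2 lines (adjusted p = 0.0512 and 0.0796). Speg, Pax6, Nrxn2 and Lhx6 were not called against WT, and Hoxd3 and Grm4 were too low to be tested.

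Members of other families with blocks were called as well, beside 3.63% and 1.66% of all tested genes called higher in Ezh1/2 dKO and Y726D. Of 7 tested T-box genes, which pattern mesoderm and heart, Tbx5, Tbx15 and Tbx20 rose in Ezh1/2 dKO and Tbx15 in Y726D. Of 7 tested bHLH genes Atoh1, Neurog1 and Olig3 rose in Ezh1/2 dKO and Olig3 in Y726D. Of 3 Gata genes Gata3 and Gata4 rose in Ezh1/2 dKO and Gata3 in Y726D. Of 8 Sox genes Sox21 rose in Ezh1/2 dKO. Of 7 Wnt genes Wnt5a rose in both. Of 6 Fgf genes Fgf15 rose in both and Fgf21 fell in Y726D. Of 4 Fox, 3 Pax, 3 LIM and 3 Nkx genes tested, limma, edgeR and DESeq2 called 0 in Ezh1/2 dKO, with 2, 1, 1 and 1 at an unadjusted p under 0.05. Most Fox, Pax, LIM and Nkx genes with a block had a mean under 5 normalized counts over the 8 libraries and were not tested. In all families the filter can take in a low gene through a line where it is high, which favours rises there.

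Of 7 PRC1 genes with a block, Bmi1 and Cbx8 rose in Ezh1/2 dKO and Cbx2 and Cbx8 in Y726D, beside 3.63% and 1.66% of all tested genes. Cbx8 had 18.7 and 3.85 normalized counts in WT, 5.23 and 6.77 in Ezh2 KO, 73.4 and 134 in Ezh1/2 dKO and 79.4 and 73.8 in Y726D (log2 fold change 3.36, adjusted p = 0.0325, and 2.99, adjusted p = 0.0545). Bmi1 had 50.7 and 77.0 in WT, 112 in both Ezh2 KO libraries and 162 and 173 in Ezh1/2 dKO (1.41, adjusted p = 0.0391). Cbx2 had 273 and 194 in WT, 146 and 166 in Ezh2 KO and 433 and 563 in Y726D, where it was called (1.09, adjusted p = 0.0480). Kdm2b, Phc2, Pcgf5 and Yaf2 were not called against WT. In Cbx2 both Ezh2 KO libraries lay below both WT libraries, with no call.

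Dppa3 differed in direction between Ezh1/2 dKO and Y726D, with 176 and 106 normalized counts in WT, 170 and 114 in Ezh2 KO, 283 and 414 in Ezh1/2 dKO (log2 fold change 1.32, adjusted p = 0.0775) and 21.4 and 20.1 in Y726D (−2.66, adjusted p = 0.0113). Esrrb stayed between 1812 and 2497 in all libraries and B2m between 164 and 461, neither called. Frmd4b, Fgfr2, Cdk5rap2 and Uaca, the genes nearest the widest blocks off the WT lists, were not called against WT in any line. Fgfr2 had 24.0 and 12.5 in WT, 1.05 and 3.87 in Ezh2 KO and 32.1 and 27.5 in Ezh1/2 dKO.

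Other large changes touched genes of varied function. In Ezh1/2 dKO, Brdt rose further, to 51.9 and 67.5 normalized counts, and Cd44, a hyaluronan receptor gene, at 0 in WT and at 5.23 and 8.71 in Ezh2 KO, was at least 9.10-fold higher. The 6 falls there included Ezh1, which is deleted, Ina, an intermediate filament gene of neurons (141 and 105 in WT, 20.6 and 17.8 in Ezh1/2 dKO), Mcam, a cell adhesion gene (261 and 314 against 120 and 101), Pnma2 and Dnajc22. In Y726D the largest falls besides Ezh1 were Col26a1, a collagen gene (167 and 134 in WT, 22.3 and 5.59), Pdha2, a testis form of a pyruvate dehydrogenase subunit (41.4 and 26.0, then 4.46 and 1.12), Stk33 and Atf3, a stress response gene (391 and 129, then 63.3 and 12.3). Pdha2 stood at 152 and 158 in Ezh1/2 dKO (log2 fold change 2.21, adjusted p = 0.0606), the opposite direction to Y726D.

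Of the lineage markers with a block, 2 of 4 tested for primitive endoderm, 2 of 4 for trophoblast and 1 of 1 for fibroblast were called higher in Ezh1/2 dKO. Of all tested genes 3.63% were, and of all tested block genes 11.8%. The filter can take in a low marker through a line where it is high, which favours rises there. The summed normalized counts of 6 primitive endoderm markers ran from 20.01 to 35.6 in WT, 10.46 to 30.0 in Ezh2 KO, 145 to 170 in Ezh1/2 dKO and 55.9 to 63.3 in Y726D, and Dab2 and Gata4 were called in Ezh1/2 dKO. The defining marker Gata6, too low to be tested, had 0 and 1.93 in WT, 0 in both Ezh2 KO libraries and 7.42 and 11.5 in Ezh1/2 dKO, and Sox17 was at or under 2.89 in every library. For 5 trophoblast markers the sums were 221 to 237, 347 to 411, 526 to 670 and 530 to 1046 in that order of lines, with the keratin genes Krt8 and Krt18 called in Ezh1/2 dKO and Y726D and Elf5 at or under 2.90. Cdx2, which was not called, had 70.7 and 9.63 in WT and 33.0 and 440 in Y726D, and Eomes 36.0 and 28.9, then 43.7 and 111, so that the highest trophoblast sum came with the high Cdx2 of 1 Y726D library. For 3 fibroblast markers they were 4.81 to 12.01, 13.5 to 16.7, 98.1 to 115 and 86.1 to 88.3, nearly all from Thy1, the marker called there. The sums of 4 neural markers ran from 536 to 1326 in WT, 524 to 843 in Ezh2 KO, 832 to 1080 in Ezh1/2 dKO and 538 to 907 in Y726D. Those of 3 mesoderm markers were 38.7 to 39.5, 10.46 to 17.4, 47.0 to 97.7 and 53.5 to 166, so that Ezh2 KO lay below WT and the other 2 lines above it. Of the neural and mesoderm markers with a block, 0 were called in Ezh1/2 dKO by limma, edgeR or DESeq2 and 0 had an unadjusted p under 0.05. The sums of 7 embryonic stem cell markers were 12887 to 13883 in WT and 11235 to 12108 in Ezh1/2 dKO. The part of a changed cell mixture in the rises of block genes was not tested.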

How the data were processed

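Chromatin was profiled in mouse embryonic stem cell lines by ChIP-seq and ATAC-seq with 1 library per line and target, and RNA in 2 libraries per line. The authors aligned reads to mm9 with Bowtie, keeping unique alignments, took out duplicates (Picard) and ran MACS2 on each library to call peaks. The deposited peak and region lists, apart from that of HA-EZH1, give a −log10 p and a fold enrichment (ratio) over the background of the same library. The lists were used as deposited, with no scaling between lines. For RNA, the authors used TopHat, HTSeq-count without strand and DESeq2. The deposited RNA values are normalized signal, that is gene counts divided by size factors, and 100% of values above 0 were whole reads within 0.01 of a read. Tables of the authors' own fold changes and p-values were not used.

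Blocks were read from the region list of Ezh2 KO and compared with the other lists by shared bases and with GENCODE protein-coding TSSs on the same build. Of 18055 genes in the RNA table, 15709 matched a protein-coding symbol, 757 matched through a synonym and 1589 did not match. RNA was tested with limma 3.58.1 (trend) in R 4.3.3 on log2(value + 1) over all 8 libraries, so that fold changes understate changes of low genes. edgeR 4.0.16 (quasi-likelihood) and DESeq2 1.42.0 served as alternatives on the recovered reads, and the scripts were checked on simulated data. Overlaps carry Wilson intervals. Some lists hold fewer chromosomes, and shares of these use the chromosomes each list holds. RING1B, H2AK119ub, WT H3K27ac, input, EZH2 rescue and inhibitor libraries were not used here.

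The blocks, gene lists and tests were chosen with earlier results of these data known. Named genes are the 10 with the most block bases near a TSS, the 15 loci the study displays, for each line the 5 largest called rises and falls with libraries beyond both WT libraries, the PRC2, PRC1, pluripotency and housekeeping genes with a block, and genes nearest the 5 widest blocks off both WT lists. Some genes that these rules pick are not reported here. Genes and markers beyond these were named from the family and marker lists.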

Additional observations from a re-analysis of the deposited data

Results flagged for a closer look

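The RNA differences between Ezh1/2 dKO and Ezh2 KO were set apart because the comparison of these lines, a test of the difference between their changes against WT, passed its threshold (limma over all 13872 genes, adjusted p under 0.1 and an absolute log2 difference of at least 1). It did so for 332 block genes that were higher in Ezh1/2 dKO (13.7% of those tested), beside 3.52% of all tested genes. Among 57 genes named by rule, 21 passed it, and since the rule took the largest rises and falls in these lines, their direction is partly fixed by that choice.

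In log2 of Ezh1/2 dKO over Ezh2 KO, the HOX genes differed by 6.50 for Hoxa10, 5.31 for Hoxa9, 4.86 for Hoxd13, 3.78 for Hoxb7, 3.69 for Hoxa11, 3.46 for Hoxa3 and 3.10 for Hoxa7. For Hoxd13, at 0 in both Ezh2 KO libraries, the fitted value depends on the added count. Other developmental and signalling genes differed by 3.39 for Wnt5a, 3.28 for Fgfr2 and 3.25 for Olig3. Genes that were lower in Ezh2 KO than in WT gave 6.47 for Arg2, 6.32 for Dcc, 5.85 for Inpp4b, 4.83 for Dux and 4.11 for Cobll1. Dcc, Inpp4b and Cobll1 were at 0 in both Ezh2 KO libraries, so the same limit holds for them. PRC1 genes gave 3.85 for Cbx8, 1.99 for Pcgf5 and 1.18 for Cbx2. Pdha2 differed by 2.40 and Dppa3 by 1.29. Ezh1, deleted in Ezh1/2 dKO, differed by −4.39. No group of libraries was large enough for a check of single outlying libraries.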

How the results depend on the processing

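Taking blocks whatever the number of marks returned the same blocks by construction and tests nothing. Leaving out the 12 that overlap a block of Ezh1/2 dKO or Y726D left the shares of blocks as they were to within the counting error. The share on WT SUZ12 (17.2%) was 12.3% with peaks of p at most 1e-20, 9.88% with at least 50% of the block covered and 22.5% in regions at or above the median −log10 p. Under the same 3 alternatives the share on WT H3K27me3 was 10.7%, 32.0% and 49.2%, and that on Ezh2 KO H3K27me3 24.1%, 26.95% and 41.4%. The share near a TSS was 35.3% within 2.5 kb and 52.8% in the stronger regions. For RNA, the 16 genes lower in Ezh2 KO became 9 with an added count of 5, 5 with no filter, 5 with quantile normalization, 4 with edgeR, 45 with DESeq2 and 7 with the 4 libraries compared alone, and the 3 higher became 1 with edgeR and 9 with DESeq2. Quantile normalization gave 164 higher and 17 lower in Ezh1/2 dKO, where DESeq2 gave 10 lower. The fit on 4 libraries gave 19 higher and 1 lower in Y726D. For Ezh1/2 dKO against Ezh2 KO the higher count was 178 with a mean of at least 20, 107 with quantile normalization and 769 on 4 libraries, and the lower 2 and 5 under the last 2. Leaving out 1 library at a time gave 0 to 369 higher and 1 to 12 lower in Ezh1/2 dKO, 0 to 12 and 1 to 37 in Ezh2 KO, 62 to 151 and 7 to 53 in Y726D, and 28 to 468 and 1 to 2 for Ezh1/2 dKO against Ezh2 KO. A lone library is then assumed to vary like the others. The cause of these differences was not tested. Of the alternatives for single named genes, 648 kept a call and its direction, 241 lost the call, 27 gained one and 1617 had none under either, of which 68 changed sign.

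Deviations of same-numbered libraries correlated between 0.22 and 0.29 among the 3 mutant lines and between −0.41 and −0.065 for each of them with WT, so the samples were taken to share only a number. With that number as a replicate block in the fit, 3 genes were higher and 5 lower in Ezh2 KO, 276 and 5 in Ezh1/2 dKO, 133 and 19 in Y726D, and 269 and 1 in Ezh1/2 dKO against Ezh2 KO. The depth of the chromatin lists is unknown and limits every share.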
